A study of Homo sapiens with 8 samples.

Results

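DAC-resistant and parental THP-1 cells were compared in the presence of the drug, with all genes expressed in either line as the items compared. THP-1 is an established human acute monocytic leukemia cell line. Decitabine (DAC) is a cytidine analogue that is built into DNA and traps DNA methyltransferases, so that DNA methylation is lost as cells divide. Both lines were exposed to 1 µM DAC for 6 days, and 2 biological replicate libraries were made for each line from poly(A)-selected RNA. The drug-free reference was the same lines given the vehicle DMSO for 6 days, which makes 4 groups and 8 libraries, 4 of them from DAC-treated cells. The resistant line was derived from parental THP-1 by long-term pulsed DAC exposure and later culture without drug. Under DAC the contrast therefore set cells with a long history of the drug against cells that met it for the first time, and 1 selected line stood for resistance.

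A gene was included when it reached 1 FPKM (fragments per kilobase of gene, scaled to sequencing depth) in at least 2 of the 4 DAC libraries, which 13956 of 60664 annotated genes did. Of these, 13411 were autosomal and 11305 protein-coding, and the 485 X-linked and 16 Y-linked genes were counted but are not described. Line differences are given on the log2(FPKM + 1) scale with the standard error (SE) from limma, and this scale understates the change of genes near or below 1 FPKM. A gene was called higher or lower where its p did not exceed 0.01 before adjustment and the log2 difference reached 1 in size. Adjusted p-values follow Benjamini and Hochberg across the 13956 genes, and the p-values measure only the spread between these libraries. For a single gene, a two-sided exact permutation test of 2 against 2 libraries cannot go below p = 0.333, so calls rest on the model fitted across all genes.

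Reads on genes numbered between 27466846 and 31898584 per library, with parental DAC libraries at 27480233 and 27466846 and resistant DAC libraries at 31898584 and 30610200. Parental DAC libraries held more genes above 0 (30957 and 30999) than resistant DAC libraries (26403 and 26299). Of 14 markers of monocytic cells, all were expressed and 8 were called lower in resistant cells under DAC. Their summed level was 830 and 821 FPKM in parental and 429 and 431 FPKM in resistant DAC libraries, while CD4, FCER1G and CST3 were not called. Of the 14, 2 passed the inclusion rule only through parental cells (MPO, called lower, and CD68, not called) and so had to differ. With a mean of at least 5 FPKM, 7 of 12 were lower. Among 10 markers of T and NK cells, 8 lay below the inclusion threshold, among them CD3D, CD3E and CD3G, each below 0.5 FPKM in every library, and CD5 (0.896 and 0.850 FPKM in parental and 0.0601 and 0 FPKM in resistant DAC libraries). NKG7 and the T-cell receptor gene TRAC (3.31 and 2.87 FPKM in parental and 0.0320 and 0.167 FPKM in resistant DAC libraries, −1.89) were called lower. TRAC passed the inclusion rule only through parental cells and so had to differ. In bulk RNA, fewer cells of one state and less RNA per cell cannot be told apart.

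Several well-known programs frame the genes described here. Loss of DNA methylation can release silent repeats, whose RNA is read by sensors such as MDA5 (IFIH1) and passed through MAVS to interferon genes. Secreted interferon binds its receptors and activates a transcription factor complex that contains IRF9 and binds the interferon-stimulated response element upstream of antiviral genes. A separate program, the integrated stress response, works through the transcription factor ATF4 and raises genes for amino acid synthesis, amino acid transport and tRNA charging. THP-1 cells sit at a monoblast stage and can mature towards monocytes and macrophages, with granule, receptor and lysosomal genes as the usual readouts.

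Promoter sequence is shown for 5 interferon-stimulated effectors and 2 ATF4-associated genes. They were picked by the size of the called difference from part of the promoters that hold the motif searched for outside annotated exons. Genes with larger differences can therefore be missing here. The reference stretches upstream of the RefSeq start (GRCh38.p14, gene strand, 5′ to 3′) were searched on both strands for 2 motifs. The ISRE core, from the interferon-stimulated response element, was GAAA followed after any 2 bases by another GAAA, and TGATGNAA was the core bound by C/EBP-ATF heterodimers. Neither motif contains the other. Capitals mark the matches, and a match is a description of letters, not evidence of binding.
IFI27 (chr14:94110486-94110677, plus strand, 2 matches): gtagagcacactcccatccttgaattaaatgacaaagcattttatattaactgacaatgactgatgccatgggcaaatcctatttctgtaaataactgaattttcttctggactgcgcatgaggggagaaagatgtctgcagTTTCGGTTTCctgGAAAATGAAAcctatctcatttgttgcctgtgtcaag
MX1 (chr21:41431800-41432030, plus strand, 1 match): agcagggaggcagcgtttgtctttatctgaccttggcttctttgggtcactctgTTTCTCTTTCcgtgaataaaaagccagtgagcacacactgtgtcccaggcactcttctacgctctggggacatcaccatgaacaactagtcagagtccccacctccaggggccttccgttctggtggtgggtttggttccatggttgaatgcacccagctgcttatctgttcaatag
IFI6 (chr1:27672213-27672442, minus strand, 3 matches): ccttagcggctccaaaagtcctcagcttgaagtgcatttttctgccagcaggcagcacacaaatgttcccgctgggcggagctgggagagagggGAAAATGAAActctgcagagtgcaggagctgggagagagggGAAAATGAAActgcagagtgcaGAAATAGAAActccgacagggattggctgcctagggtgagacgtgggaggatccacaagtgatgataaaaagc
LGALS3BP (chr17:78979948-78980173, minus strand, 1 match): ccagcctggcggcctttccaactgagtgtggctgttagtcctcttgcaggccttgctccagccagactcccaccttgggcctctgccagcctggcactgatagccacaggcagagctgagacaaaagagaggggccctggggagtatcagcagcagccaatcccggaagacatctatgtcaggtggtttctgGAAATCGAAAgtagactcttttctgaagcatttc
ISG15 (chr1:1013247-1013496, plus strand, 2 overlapping matches): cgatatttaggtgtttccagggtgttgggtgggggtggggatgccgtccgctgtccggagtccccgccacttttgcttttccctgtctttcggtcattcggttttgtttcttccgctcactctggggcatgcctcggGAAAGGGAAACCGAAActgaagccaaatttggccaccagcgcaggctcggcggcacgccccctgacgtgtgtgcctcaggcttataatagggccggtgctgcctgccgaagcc
CEBPG (chr19:33373896-33374112, plus strand, 1 match): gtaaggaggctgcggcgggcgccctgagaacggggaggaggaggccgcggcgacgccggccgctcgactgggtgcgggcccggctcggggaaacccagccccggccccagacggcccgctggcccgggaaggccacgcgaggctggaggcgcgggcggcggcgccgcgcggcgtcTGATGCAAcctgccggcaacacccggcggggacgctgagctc
JDP2 (chr14:75427850-75428021, plus strand, 1 match): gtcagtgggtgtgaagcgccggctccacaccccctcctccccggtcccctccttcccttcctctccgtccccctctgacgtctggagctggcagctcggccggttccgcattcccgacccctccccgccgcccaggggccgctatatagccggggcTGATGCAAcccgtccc
The first 5 stretches belong to antiviral genes that were lower in resistant cells under DAC, and the last 2 to ATF4-associated factors that were higher. The stretch shown for MX1 precedes one of several starts listed for that gene.

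Under DAC, more genes were lower than higher in resistant cells. Of the genes tested, 1363 were called lower (9.77%) and 788 were called higher (5.65%), and all had adjusted p-values of at most 0.016. The median difference over all genes was −0.03. Among autosomal protein-coding genes, 947 were lower and 541 higher, and among long non-coding RNA genes 165 were lower and 112 higher. Large differences leaned further to one side, since 107 genes were lower by at least 3 on the log2 scale and 15 were higher by as much. The inclusion rule bears on this balance, because 739 of the genes called lower and 189 of those called higher reached 1 FPKM in one line only. The share of calls that were higher was 36.6% as fitted, 45.9% after rescaling to TPM, 48.9% after quantile normalization and 50.9% among genes with a mean of at least 5 FPKM.

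**Figure D1:**
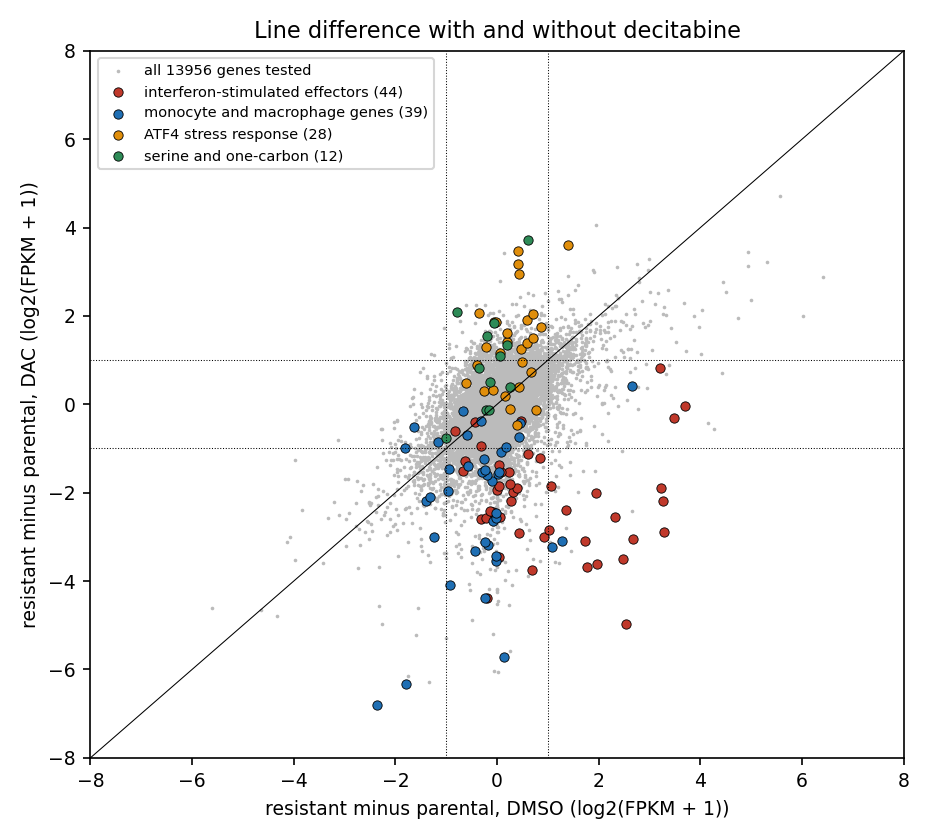
Difference between resistant and parental THP-1 cells under DMSO (x axis) and under DAC (y axis) for each of the 13956 genes, on the log2(FPKM + 1) scale, with lines at a difference of 1 in either direction and along the diagonal, and with the members of 4 gene lists in colour. Genes below the horizontal axis and right of the vertical axis were lower under DAC and higher under DMSO, among them IFI27 at −4.97 under DAC and 2.53 under DMSO.

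Of the genes that sense foreign and repeat RNA or relay that signal, 7 of 15 tested were lower in resistant cells. IFIH1, which encodes the sensor MDA5, stood at 42.1 and 40.4 FPKM in parental and at 11.9 and 11.6 FPKM in resistant DAC libraries, a difference of −1.73 (SE 0.04, adjusted p = 1.09e-07). The 2 lines did not overlap, and both DMSO-treated lines lay near the resistant DAC libraries, at 8.88 and 9.11 FPKM in parental and 13.5 and 13.5 FPKM in resistant cells. OAS3, an enzyme that makes the messenger activating RNase L, was at 61.7 and 61.3 FPKM against 4.26 and 4.36 FPKM (−3.56, SE 0.04, adjusted p = 4.44e-08). Of the 15 genes of this group tested (of 18 listed), 0 were called higher (median −0.95). The others called lower were OAS1 at −3.07, OAS2 at −2.80, DHX58 at −1.77, the kinase EIF2AK2 at −1.52 and the kinase IKBKE at −1.36. The adaptor MAVS went the other way without being called, at 7.20 and 7.57 FPKM in parental and 15.5 and 15.1 FPKM in resistant cells (0.96, adjusted p = 3.14e-06). The sensor RIGI, below the inclusion threshold, was at 0.802 and 0.791 FPKM against 0.197 and 0.151 FPKM under DAC. No DMSO library of either line exceeded 0.215 FPKM for RIGI. Fitted without the inclusion rule, its line difference was −0.61 under DAC and 0.09 under DMSO, and neither was called.

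Between the interferon receptors and the nucleus, the interferon regulatory factors IRF7 and IRF9 differed more than the receptors. IRF7, the factor that amplifies interferon production, was at 50.4 and 52.6 FPKM in parental and at 5.36 and 4.76 FPKM in resistant DAC libraries (−3.12, SE 0.06, adjusted p = 9.33e-08). Its resistant DAC libraries lay closer to the DMSO libraries of either line, which ran from 3.43 to 8.51 FPKM, than to the parental DAC libraries. USP18, which damps receptor signalling, was lower as well (−2.72), and IRF9 was lower by less (−1.47). None of the receptor chains was called, with IFNAR1 at −0.31, IFNAR2 at −0.13, IFNGR1 at −0.64 and IFNGR2 at −0.67. Of 17 genes in the group, 6 were lower and 0 higher (median −0.47). IFNB1, the gene for interferon beta, was low in all DAC libraries and higher in resistant cells (1.9 and 2.33 FPKM against 0.303 and 0.520 FPKM, 1.14, SE 0.12, adjusted p = 1.32e-04), and it passed the inclusion rule only through the resistant line.

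Interferon-stimulated effectors had a larger share of lower calls than any other pathway list examined. Of 44 tested members (of 45 listed), 37 were called lower (84.1%) and 0 higher, with a median of −2.10, and 2 of the 44 (MX1 and GBP1) passed the inclusion rule only through the parental line. The summed level of the group was 3061 and 3172 FPKM in parental and 588 and 571 FPKM in resistant DAC libraries. Without drug the order was the reverse, with 429 and 420 FPKM in parental and 739 and 721 FPKM in resistant DMSO libraries. The resistant DAC libraries thus held less of this RNA than the resistant DMSO libraries, and the parental DAC libraries held the most.

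IFI27, a mitochondrial protein and one of the most interferon-responsive genes, was at 184 and 196 FPKM in parental and at 5.30 and 4.87 FPKM in resistant DAC libraries (−4.97, SE 0.06, adjusted p = 4.48e-08). Under DMSO its order was turned, with 0.304 and 0.382 FPKM in parental and 6.95 and 6.54 FPKM in resistant cells. IFI6, which protects cells from virus-driven membrane remodelling, was at 542 and 574 FPKM against 43.4 and 41.0 FPKM under DAC (−3.69, SE 0.07, adjusted p = 8.07e-08). LGALS3BP, a secreted glycoprotein, was at 130 and 130 FPKM against 9.68 and 9.88 FPKM (−3.61, SE 0.09, adjusted p = 1.66e-07). IFIT1, which binds RNA lacking a host-type cap, was at 51.8 and 54.0 FPKM against 11.3 and 10.4 FPKM (−2.19, SE 0.06, adjusted p = 2.66e-07). MX1, which blocks viral replication, was at 22.5 and 22.6 FPKM against 0.141 and 0.116 FPKM (−4.38), and ISG15, a ubiquitin-like protein, was at 202 and 211 FPKM against 19.2 and 15.7 FPKM (−3.50). In each of these genes both parental DAC libraries exceeded every other library. The antiviral gene LY6E (−3.74) and the nucleotide-modifying enzyme RSAD2 (−3.46) were lower as well.

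The other 7 effectors were not called. IFIT2, a relative of IFIT1, was at 26.6 and 27.7 FPKM in parental and 21.7 and 22.2 FPKM in resistant DAC libraries (−0.30). HERC5, the ligase that attaches ISG15 to proteins, was at 12.4 and 14.9 FPKM against 13.3 and 13.2 FPKM (−0.03), so its lines overlapped. GBP5, a guanylate-binding protein, was at 5.13 and 5.11 FPKM against 9.35 and 10.3 FPKM (0.82). The libraries of the 2 lines did not overlap for IFIT2 and GBP5. The rest were GBP3 (−0.94), NMI (−0.61), APOL6 (−0.41) and IFITM2 (−0.38). The IFITM, GBP and HLA genes have close relatives with which they may share reads.

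**Figure D2:**
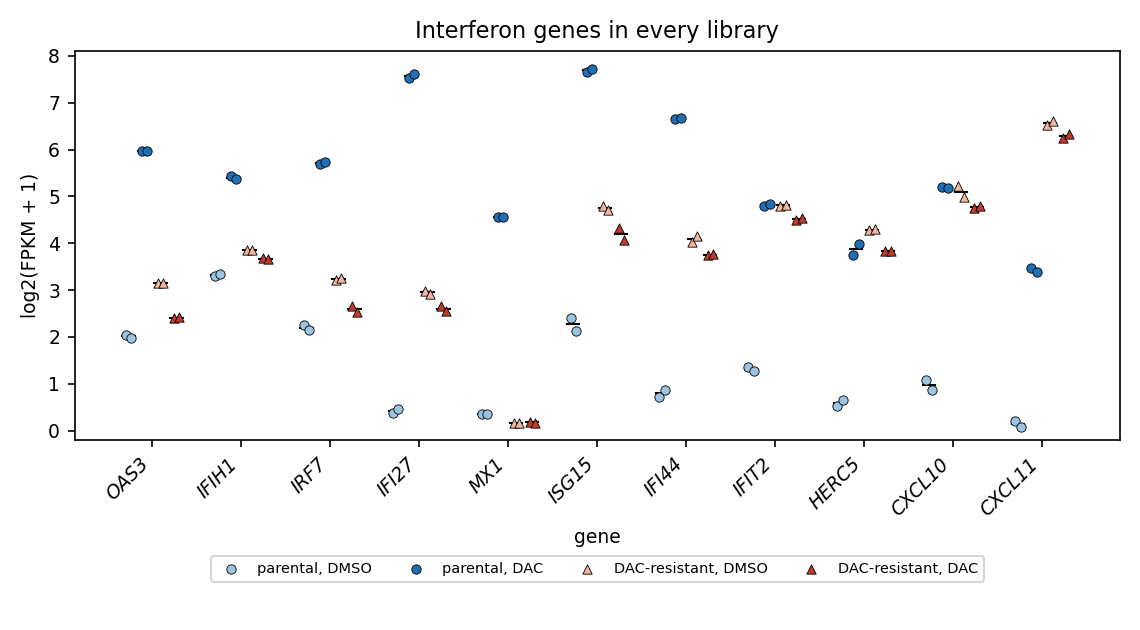
Level of interferon-pathway genes in each of the 8 libraries on the log2(FPKM + 1) scale, with circles for parental and triangles for resistant cells, light for DMSO and dark for DAC, and bars at group means. In IFI27 the parental DAC circles (184 and 196 FPKM) stand above all other libraries, and the resistant DAC triangles (5.30 and 4.87 FPKM) stand slightly below the resistant DMSO triangles.

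The promoters printed above are examples of a more general count. The ISRE core was found in 32 of 47 listed promoters of the effector genes (68.1%), against 3.57% of all 35116 promoters of this length. Among promoters of genes called lower under DAC it was in 83 of 1191 (6.97%, 95% Wilson interval 5.66 to 8.56%, and 11% with a mean of at least 5 FPKM), among those called higher in 20 of 673 (2.97%), and among genes not called in 2.69%. Of the 44 effectors tested, 37 are also among the genes called lower, so these counts share promoters. The shares count promoters rather than genes, since a gene can have several starts.

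Interferon-induced chemokines did not move as a block. Of 7 tested, 4 were called lower and 1 higher. CXCL11, a ligand for CXCR3 on T cells, was higher in resistant cells, at 75.1 and 80.1 FPKM against 10.1 and 9.44 FPKM (2.87, SE 0.06, adjusted p = 1.21e-07). Its difference was larger without drug (6.42), where parental cells had 0.159 and 0.0556 FPKM. CXCL10, which uses the same receptor, was at 35.6 and 35.2 FPKM against 25.8 and 26.6 FPKM (−0.42, not called), and CCL5 was at 56.8 and 59.5 FPKM against 111 and 112 FPKM (0.93, not called). The monocyte attractant CCL2 (90.7 and 89.6 FPKM against 0.410 and 0.164 FPKM, −6.15) and CCL8 (50.5 and 46.0 FPKM against 0 and 0.0379 FPKM, −5.59) were close to 0 in resistant DAC libraries. Both passed the inclusion rule only through parental cells, as did 4 of the 7. CCL7, at 2.91 and 3.75 FPKM in parental cells, had 0 reads in both resistant DAC libraries, which puts it at least 25.6-fold lower at a floor of 3 reads per library.

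Antigen presentation genes were lower in part. B2M, the shared light chain of class I molecules, was at 570 and 562 FPKM in parental and 259 and 255 FPKM in resistant DAC libraries (−1.14, SE 0.02, adjusted p = 7.67e-08). CALR, a chaperone of class I folding, was at 625 and 614 FPKM against 210 and 213 FPKM (−1.54, SE 0.02, adjusted p = 4.98e-08). The heavy chain genes HLA-B (0.06) and HLA-C (0.21) were not called. In all, 6 of 20 class I pathway genes, 3 of which were included only through parental cells, were lower and 0 higher (median −0.57), and 3 were lower after rescaling to TPM, which moved the differences of PSMB10, NLRC5 and TAP1 to between −0.99 and −0.93. Among 6 tested class II genes (of 12 listed), HLA-DRA (28.3 and 26.9 FPKM against 5.62 and 4.93 FPKM, −2.19) and HLA-DPA1 (−1.29) were lower, and the invariant chain CD74 was not called (−0.71).

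Genes of mature monocytes and macrophages were also lower in resistant cells. Of 39 tested members (of 51 autosomal genes listed), 29 were called lower (74.4%) and 0 higher, with a median of −1.73, or −1.96 with members at 0 reads placed at their bound. Of the 39, 15 passed the inclusion rule only through the parental line and so had to differ, and among the 25 members with a mean of at least 5 FPKM 17 were lower. CD14, the lipopolysaccharide co-receptor, was at 19 and 20.8 FPKM in parental and 0.837 and 1.37 FPKM in resistant DAC libraries (−3.32, SE 0.13, adjusted p = 1.45e-06). CTSD, a lysosomal protease, was at 105 and 103 FPKM against 11.6 and 10.7 FPKM (−3.12, SE 0.05, adjusted p = 5.52e-08). In both genes the parental DAC libraries exceeded the parental DMSO libraries, which were at 1.45 and 1.58 FPKM for CD14 and at 13.9 and 13.4 FPKM for CTSD. The complement genes C1QA (16.7 and 15.3 FPKM in parental cells), C1QB and C1QC had 0 reads in both resistant DAC libraries, which puts them at least 191-fold, 294-fold and 142-fold lower.

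Several surface receptors of the group were lower too. CSF1R, the receptor for macrophage colony-stimulating factor, was at 26.3 and 27.4 FPKM in parental and 5.95 and 6.36 FPKM in resistant DAC libraries (−1.96), and the lines already stood at 13.8 and 14.6 FPKM against 6.83 and 6.72 FPKM under DMSO (−0.97). ITGAM, the alpha chain of the integrin CD11b/CD18, was at 11.2 and 11.5 FPKM against 1.83 and 1.57 FPKM (−2.19) and was called lower under DMSO too (−1.40). CD86, a T-cell co-stimulatory ligand (−3.19), and the lipid receptor TREM2 (−3.00) were lower under DAC. APOE (0.42), the chitinase-like CHI3L1 (1311 and 1310 FPKM against 989 and 955 FPKM, −0.43) and TLR2 (−0.16) were not called.

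On the log2(FPKM + 1) scale, the 12 autosomal protein-coding genes with the largest drops included several secreted and granule proteins of myeloid cells. Of the 12, 7 passed the inclusion rule only through parental cells (S100A8, CCL2, CXCL13, CCL8, RHEX, TMEM176B and DAZL) and so had to differ. S100A9, a subunit of calprotectin, was at 619 and 600 FPKM in parental and 4.37 and 4.56 FPKM in resistant DAC libraries (−6.80, SE 0.10, adjusted p = 5.21e-08). Its partner S100A8 was at 84.9 and 86.0 FPKM against 0.141 and 0 FPKM (−6.34). The gelatinase MMP9 was at 116 and 116 FPKM against 1.26 and 1.23 FPKM (−5.71, SE 0.12, adjusted p = 1.17e-07), although the lines differed by 0.14 under DMSO. The B-cell attractant CXCL13 gave 75.6 and 74.2 FPKM against 0.240 and 0.0910 FPKM (−6.03) and differed by −0.06 under DMSO. The other genes among the 12 were the chemokine genes CCL2 and CCL8, the protease gene ADAMDEC1 (−4.98), RHEX (−5.28), TMEM176B (−4.60), the chemokine receptor CXCR4 (168 and 162 FPKM against 6.47 and 5.50 FPKM, −4.57), the germ-cell gene DAZL (−4.51) and IFI27.

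Granule genes of earlier myeloid stages did not all follow. LYZ, which encodes lysozyme, was at 46.7 and 48.9 FPKM in parental and 3.38 and 2.88 FPKM in resistant DAC libraries (−3.57, SE 0.11, adjusted p = 5.91e-07). CTSG, the gene of the granule protease cathepsin G, went the other way at 52.8 and 50 FPKM against 296 and 281 FPKM (2.47, SE 0.04, adjusted p = 6.86e-08). Neutrophil elastase (ELANE, 0.63), proteinase 3 (PRTN3, −0.31) and AZU1 (−0.63) were not called. Of 13 tested granule genes (of 17 listed, 4 of the 13 included only through parental cells), 8 were lower and 1 higher (median −1.37, or −1.62 with BPI, at 0 reads in resistant cells, at its bound), and with a mean of at least 5 FPKM 4 were lower.

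Cytokine genes of the inflammatory response gave 11 lower and 0 higher among 19 tested genes (of 24 listed), 7 of the 19 having passed the inclusion rule only through parental cells. CXCL8, the neutrophil attractant, was at 41.9 and 40.5 FPKM in parental and 2.03 and 3.14 FPKM in resistant DAC libraries (−3.58, SE 0.14, adjusted p = 1.31e-06). IL1B was at 10.5 and 11.3 FPKM against 0.281 and 0.0977 FPKM (−3.33, SE 0.10, adjusted p = 4.34e-07). NFKBIA, the feedback inhibitor of NF-kB (−2.06), and the death ligand TNFSF10 (−2.55) were lower, whereas TNF itself was at 36.1 and 38.2 FPKM against 51.1 and 49.9 FPKM (0.43, not called). Only 4 of the group were lower among genes with a mean of at least 5 FPKM.

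**Figure D3:**
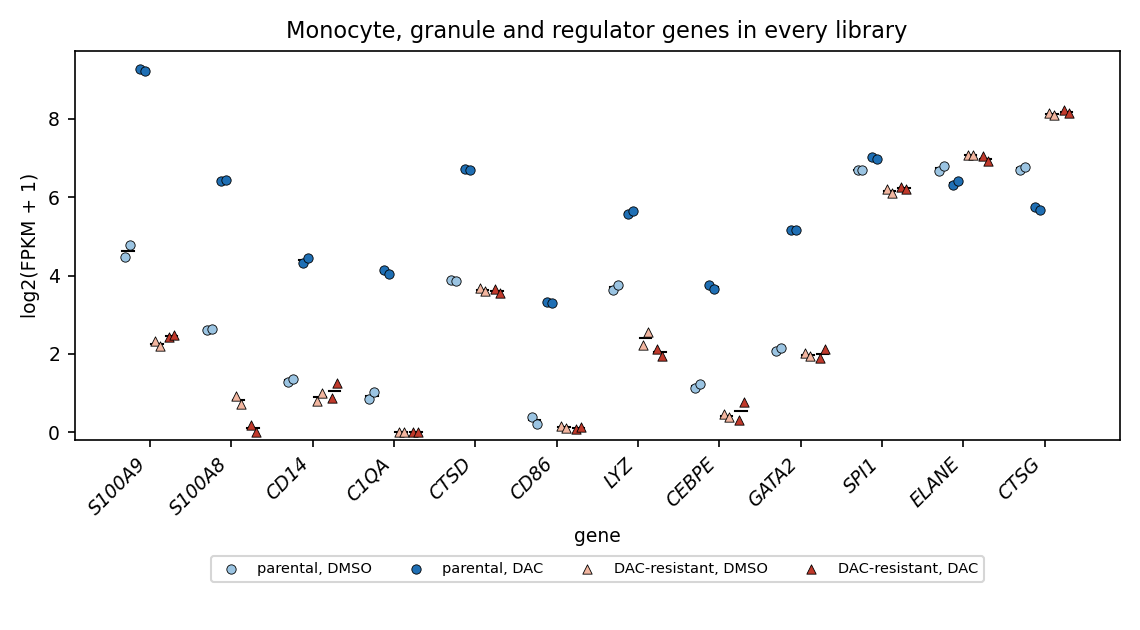
Level of myeloid genes in each of the 8 libraries on the log2(FPKM + 1) scale, with circles for parental and triangles for resistant cells, light for DMSO and dark for DAC, and bars at group means. S100A9 falls from 619 and 600 FPKM in parental DAC libraries to 4.37 and 4.56 FPKM in resistant DAC libraries, while CTSG is higher in both resistant groups.

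Among 19 transcription factors of myeloid cells, 5 were lower and 0 higher. Of the 19, 3 passed the inclusion rule only through parental cells, and with a mean of at least 5 FPKM 2 of 13 were lower, against 6.2% of all genes. GATA2, a factor of progenitors, mast cells and basophils, was at 34.8 and 35.1 FPKM in parental and 2.72 and 3.33 FPKM in resistant DAC libraries (−3.16, SE 0.08, adjusted p = 2.23e-07). CEBPE, a factor of late granulocyte maturation, was at 12.6 and 11.5 FPKM against 0.237 and 0.713 FPKM (−3.16, SE 0.15, adjusted p = 3.33e-06). Neither gene was called under DMSO (−0.13 for GATA2 and −0.75 for CEBPE), and CEBPE passed the inclusion rule only through parental cells. The macrophage factor MAF (−1.44) and the early response factor EGR2 (−1.53) were lower. SPI1, which encodes PU.1, was at 129 and 125 FPKM against 76.1 and 72.8 FPKM (−0.76, not called), and CEBPA (−0.10), MYB (0.10), GFI1 (0.74) and MYC (0.87) were not called. Of 9 HOXA and partner genes tested, 3 were higher, with HOXA13 at 1.26, and HOXA9 was not called (0.58).

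Genes of the ATF4 program were higher in resistant cells under DAC. ATF4 itself was at 108 and 109 FPKM in parental and 287 and 285 FPKM in resistant DAC libraries (1.40, SE 0.03, adjusted p = 7.84e-08). Its relative ATF5 was at 34.5 and 34.1 FPKM against 265 and 275 FPKM (2.94, SE 0.03, adjusted p = 4.37e-08). Both parental DAC libraries were the lowest of all 8, since ATF4 stood between 206 and 243 FPKM and ATF5 between 127 and 176 FPKM under DMSO in the 2 lines. Of 28 tested members (of 30 listed), 17 were called higher (60.7%) and 0 lower, with a median of 1.34, and 2 (CTH and SLC6A9) passed the inclusion rule only through resistant cells. Among members with a mean of at least 5 FPKM, 15 of 22 were higher.

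Several stress effectors of the list were among the genes with large differences. TRIB3, a pseudokinase that feeds back on ATF4, was at 14.7 and 16.8 FPKM in parental and 156 and 146 FPKM in resistant DAC libraries (3.18, SE 0.07, adjusted p = 1.45e-07). CHAC1, which degrades glutathione, was at 2.96 and 3.26 FPKM against 49.0 and 48.5 FPKM (3.60, SE 0.05, adjusted p = 5.14e-08), and INHBE, a secreted activin subunit, was at 1.89 and 1.33 FPKM against 28.6 and 26.4 FPKM (3.46, SE 0.10, adjusted p = 3.39e-07). In each of these the resistant DAC libraries were the highest of all libraries. DDIT4, an inhibitor of mTORC1 signalling (24.7 and 25.8 FPKM against 110 and 106 FPKM, 2.06), and the cystine transporter SLC7A11 (6.77 and 6.32 FPKM against 29.5 and 30.5 FPKM, 2.04) were higher too. The genes whose promoters are printed above, CEBPG (1.62) and JDP2 (1.38), encode bZIP partners of this program. DDIT3, which encodes CHOP (0.73), PPP1R15A (−0.12) and ATF3 (−0.46) were not called, and ASNS, at 0.134 and 0.0818 FPKM against 1.11 and 0.894 FPKM, lay below the inclusion threshold.

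Serine synthesis and tRNA charging, both classical ATF4 outputs, were higher in part. PSAT1, the aminotransferase of serine synthesis, was at 36.3 and 39.9 FPKM in parental and 516 and 509 FPKM in resistant DAC libraries (3.72, SE 0.04, adjusted p = 4.37e-08). PHGDH, the first enzyme of that route, was at 14.2 and 15.2 FPKM against 55.1 and 54.6 FPKM (1.83, SE 0.03, adjusted p = 8.35e-08), and its DMSO libraries of both lines lay between 58.0 and 61.2 FPKM. SHMT2, which passes serine carbon to mitochondrial folate, was at 36.5 and 32.0 FPKM against 103 and 99.8 FPKM (1.54, SE 0.06, adjusted p = 1.19e-06). For PHGDH and SHMT2 the parental DAC libraries were the ones that stood apart, below the other 6. With ALDH1L2 (2.08), MTHFD2 (1.34) and PSPH (1.10), 6 of 12 tested genes of serine and folate metabolism were higher and 0 lower (median 0.96). The cytosolic SHMT1 (−0.12) and thymidylate synthase TYMS (−0.77) were not called.

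Of 20 cytosolic tRNA synthetase genes, 8 were higher and 0 lower (median 0.56). AARS1, for alanine, was at 23.8 and 25.1 FPKM in parental and 103 and 103 FPKM in resistant DAC libraries (2.03, SE 0.03, adjusted p = 5.21e-08). The others were WARS1 (1.75), YARS1 (1.71), IARS1 (1.62), GARS1 (1.52), MARS1 (1.25), CARS1 (1.17) and FARSB (1.09). FARSA, the partner subunit of FARSB, was at −0.78 and HARS1 at −0.45, and neither was called. WARS1 is also an interferon-induced gene in many cells.

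TGATGNAA was found in 33 of 673 promoters of genes called higher under DAC (4.9%, 95% Wilson interval 3.51 to 6.81%), in 1.93% of those called lower and in 1.74% of those not called. It was in 7 of 41 promoters of the ATF4 genes (17.1%) and in 7 of 21 promoters of tRNA synthetase genes (33.3%), against 3.62% of all promoters. Several of these genes are among those called higher. CHAC1 also holds a match, which lies in annotated exon sequence and is not shown.

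**Figure D4:**
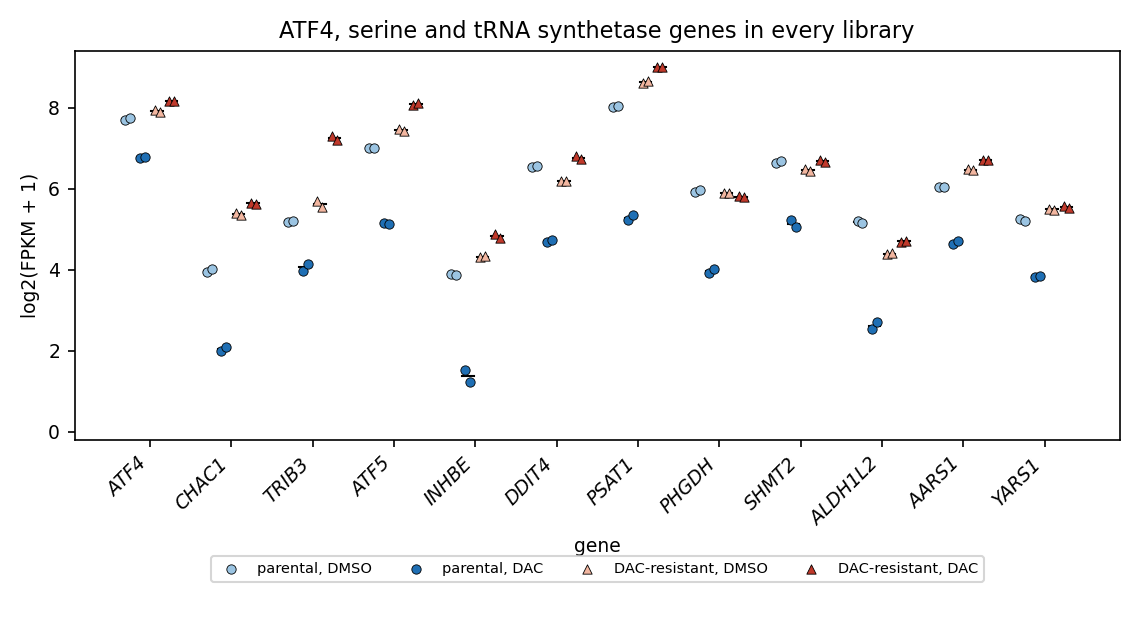
Level of ATF4-associated genes in each of the 8 libraries on the log2(FPKM + 1) scale, with circles for parental and triangles for resistant cells, light for DMSO and dark for DAC, and bars at group means. PSAT1 separates parental DAC libraries (36.3 and 39.9 FPKM) from resistant DAC libraries (516 and 509 FPKM), with the DMSO libraries of both lines between them.

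Outside these programs, the highest rises included genes already higher without drug. AKR1C2, an aldo-keto reductase of steroid and xenobiotic metabolism, had the largest rise, at 1.35 and 1.71 FPKM in parental and 66.1 and 63.8 FPKM in resistant DAC libraries (4.71, SE 0.07, adjusted p = 5.21e-08), and differed by 5.56 under DMSO. Its neighbour AKR1C3 was at 6.60 and 7.42 FPKM against 31.8 and 30.3 FPKM (2.00), and AKR1C genes are similar enough to share reads. The homeobox gene OTP (3.52 and 3.62 FPKM against 42.4 and 40.0 FPKM, 3.21), the collagen gene COL14A1 (3.13) and the guanine deaminase gene GDA (3.44) also differed more under DMSO, at 5.30, 4.93 and 4.94. Also among the 12 highest autosomal protein-coding genes were CDC42EP1 (3.28), the calsyntenin gene CLSTN2 (3.05) and PTK7 (3.03), a receptor of the planar polarity pathway, beside PSAT1, CHAC1, INHBE and TRIB3. CDC42EP1, CLSTN2 and PTK7 passed the inclusion rule only through resistant cells.

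Few genes of the NRF2, glycolysis and cholesterol lists were called. The shares higher and lower were 10.5% and 10.5% for NRF2, 4.76% and 14.3% for glycolysis, and 9.09% and 0% for cholesterol. Over all genes they were 5.65% and 9.77%. HMOX1, which encodes heme oxygenase and is a target of NRF2, was at 20.6 and 20.3 FPKM in parental and 0.734 and 0.382 FPKM in resistant DAC libraries (−3.79, SE 0.11, adjusted p = 4.22e-07), and passed the inclusion rule only through parental cells. The iron storage gene FTH1 was at 425 and 406 FPKM against 142 and 137 FPKM (−1.57). With AKR1C2 and AKR1C3 higher and NQO1 at 0.01, 2 of 19 NRF2-associated genes were higher and 2 lower. In glycolysis, 1 of 21 genes was higher and 3 were lower, among them PKM, which encodes pyruvate kinase (180 and 176 FPKM against 72.4 and 70.8 FPKM, −1.30, SE 0.02, adjusted p = 8.39e-08). Of 5 tested metallothionein genes, which are similar enough to share reads, 2 were higher and 1 lower. The lower one, MT1G, had 0 reads in both resistant DAC libraries. It passed the inclusion rule only through parental cells and so had to differ. With a mean of at least 5 FPKM, 1 of 3 was higher and 0 were lower. Cholesterol synthesis gave 2 of 22 higher and 0 lower (median 0.53), the largest difference being that of lanosterol synthase LSS (1.32). Of the 22 differences, 18 lay above 0, against 47.8% over all genes.

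Few proliferation genes reached the thresholds under the drug. Of 34 DNA replication genes, 0 were called by limma, 23 (of all genes 73.2%) had an unadjusted p under 0.05, and their differences ran from −0.85 to 0.94. The voom test on recovered reads called 1 of them (GINS1) and TPM values gave 2 (GINS1 and CDT1). Of 28 mitotic genes, the survivin gene BIRC5 (1.38) and the kinetochore gene NUF2 (1.28) were higher and 0 were lower (median 0.56), and 26 of the 28 differences lay above 0, against 47.8% over all genes. Of 20 p53 targets, 2 were lower (TP53I3, −1.94, and BTG2, −1.25), a share near the 9.77% over all genes, and CDKN1A, which encodes p21, was not called (−0.78). In the BCL2 family the survival gene BCL2A1 (10.8 and 10.5 FPKM against 0.504 and 0.656 FPKM, −2.89, included only through parental cells) and the death genes BIK (−1.81) and BMF (−1.15) were lower, the death gene BCL2L11 was higher (1.25), and BCL2 (0.78) and MCL1 (−0.05) were not called.

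Of 10 genes that handle the drug itself, 1 was called lower (10%), a share near that over all genes (9.77%). DCK, the kinase that activates DAC, was at 23.0 and 24.5 FPKM in parental and 21.4 and 22.7 FPKM in resistant DAC libraries (−0.10, adjusted p = 0.0879). CDA, the deaminase that inactivates DAC, was low and called lower, at 2.71 and 3.51 FPKM against 1.15 and 0.677 FPKM (−1.11, SE 0.17, adjusted p = 8.65e-04). The call for CDA was lost without parental DAC replicate 2 (−0.97), without resistant DAC replicate 2 (−0.93) and after quantile normalization (−0.99). It was the gene called in this group, with the transporter SLC29A1 at 0.68 and the nucleotide hydrolase SAMHD1 at −0.43. DNMT1, the maintenance methyltransferase that DAC traps, was at 26.2 and 26.7 FPKM against 17.5 and 17.3 FPKM (−0.57, not called), and of 8 DNA methylation writers and erasers only TET1 was called (1.12), and it passed the inclusion rule only through resistant cells. Of 13 retinoid receptors and targets, 1 was higher (ALDH1A1, 1.21) and 2 were lower (CYP26B1, −1.47, and CRABP2, −1.28). These shares were 7.69% and 15.4%, against 5.65% and 9.77% over all genes. Of the 13, 3 passed the inclusion rule only through parental and 2 only through resistant cells, and none of the 5 with a mean of at least 5 FPKM was called. RARA, a retinoic acid receptor gene, was at 6.64 and 7.28 FPKM against 10.2 and 10.9 FPKM (0.54, not called).

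Germline genes, many of them silenced by promoter methylation in somatic cells, separated the lines in both directions. Of 24 tested autosomal members (of 46 in the annotation), 8 were lower and 8 higher (median −0.21), with 10 having passed the inclusion rule only through parental and 3 only through resistant cells, and with a mean of at least 5 FPKM 2 of 10 were lower and 4 higher. DAZL, a germ-cell RNA-binding protein, was at 21.0 and 22.7 FPKM in parental DAC libraries, at 0 and 0.00918 FPKM (1 read) in resistant DAC libraries and at 0 in all DMSO libraries. LIN28B, which blocks let-7 maturation, was at 2.44 and 2.41 FPKM in parental and 21.8 and 23.0 FPKM in resistant DAC libraries (2.77, SE 0.05, adjusted p = 9.25e-08), and was at 0.0106 and 0.00555 FPKM in parental DMSO libraries. HORMAD1, a meiotic chromosome axis protein, was at 11.3 and 10.8 FPKM against 44.9 and 46.6 FPKM (1.95, SE 0.06, adjusted p = 4.62e-07). LIN28B and HORMAD1 were at similar levels in resistant cells with and without drug, whereas DAZL was seen in drug-exposed parental cells. Also higher were TEX19 (2.40), BRDT (2.13) and MEIOB (1.76), and also lower was MAEL (−3.69). Of 13 imprinted genes, 2 of which passed the inclusion rule only through parental and 1 only through resistant cells, 4 were lower and 0 higher (1 of 5 with a mean of at least 5 FPKM), among them CDKN1C (9.74 and 9.04 FPKM against 3.06 and 2.65 FPKM, −1.43) and NDN, which had 0 reads in both resistant DAC libraries and was at least 72.8-fold lower. Of 52 clustered protocadherin genes, 9 were tested, 5 of them only through parental cells, and 2 were lower, and none of 10 globin genes passed the inclusion rule.

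The line difference under DAC was set beside the line difference under DMSO, where 642 of the same genes were higher (4.6%) and 555 lower (3.98%) in resistant cells. The 2 contrasts share no libraries. Genes higher in both numbered 309, which is 39.2% of those higher under DAC and 48.1% of those higher under DMSO. Genes lower in both numbered 321, or 23.6% of those lower under DAC and 57.8% of those lower under DMSO. A further 1007 of the genes lower under DAC (73.9%) were not called under DMSO. The difference between the 2 contrasts was tested as an interaction, which called 481 genes higher (3.45%) and 1067 lower (7.65%) under DAC relative to DMSO, with a median of −0.07 over all genes. Of the 1007 genes, 648 were also called lower by that interaction. The inclusion rule bears on these counts, because genes were admitted by their level in the DAC libraries alone. Parental cells alone admitted 1330 genes and resistant cells alone 560, while genes expressed only under DMSO were left out.

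For the main lists the interaction gave the following. It called 38 of 44 interferon-stimulated effectors lower, while 17 of the 44 were higher and 0 lower in resistant cells under DMSO (median 0.46). It called 26 of 39 monocyte and macrophage genes lower, where DMSO alone gave 3 higher and 8 lower. Of these 39, 15 passed the inclusion rule only through parental DAC libraries, which tilts their interaction downward. It called 15 of 28 ATF4 genes higher, where DMSO alone gave 1 higher (CHAC1, 1.40) and 0 lower. The interaction uses the libraries of both contrasts and is no separate support for either.

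Opposite calls were nearly all of one kind. Lower under DAC and higher under DMSO in resistant cells were 35 autosomal genes, 34 of them protein-coding, and all 35 were called by the interaction. Of the 35, 18 belonged to the interferon lists, among them IFI6, IFIT1, IFIT3, IRF7, OAS2, OAS3 and LGALS3BP. The rest, named after their values were seen, included CXCL8, the melanosome and lysosome gene GPNMB, the cytokine gene IL32 and the meiotic cyclin gene CCNA1. The ISRE core was in 18 of the 43 promoters of these genes (41.9%). The reverse, higher under DAC and lower under DMSO, was seen for 1 gene, the pseudogene NBPF17P.

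Line differences were also summarised along the chromosomes, in windows and at a boundary chosen after the values were seen. On chromosome 6, 90 of 702 genes were higher under DAC (12.8%), with a median of 0.29, which was 0.40 after rescaling to TPM and 0.00 without the inclusion rule. The excess lay below 60 Mb, where 77 of 409 genes were higher (18.8%, median 0.46), and from 60 Mb onward 13 of 293 were (4.44%, median 0.05). The same medians under DMSO were 0.49 and 0.01. Over 139 windows of 20 Mb with at least 30 genes, medians under DAC ran from −0.56 on chromosome 12 (69 genes, −0.56 under DMSO) to 0.78 at the start of chromosome 6 (76 genes, 0.78 under DMSO). In both of these windows the median was thus the same with and without drug.

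Immunoglobulin constant genes, singled out after their values were seen, differed between libraries as well as lines. The summed level of 5 such genes was 2.56 and 4.72 FPKM in parental and 87.3 and 80.8 FPKM in resistant DAC libraries, but 1.06 and 33.5 FPKM in the 2 resistant DMSO replicates. Some of these genes may share reads, and the source of this RNA was not tested. Markers of B and plasma cells summed to 57.5 and 60.9 FPKM in parental and 107 and 107 FPKM in resistant DAC libraries, most of it from XBP1 (43.4 and 45.5 FPKM against 94.0 and 93.9 FPKM), a stress factor that myeloid cells also express. Summed markers of T and NK cells were 21.2 and 21.4 FPKM in parental and 2.83 and 1.85 FPKM in resistant DAC libraries, mostly from NKG7 (16.4 and 16.9 FPKM in parental cells). Fibroblast markers summed to 18.5 and 18.9 FPKM against 10.6 and 9.66 FPKM, erythroid markers to 2.36 and 3.87 FPKM against 5.19 and 4.35 FPKM, and epithelial markers to 2.27 and 1.59 FPKM against 0.305 and 0.306 FPKM. PDGFRB (−2.26) and COL3A1 (−1.38), included only through parental cells, were called lower, while COL1A1 (0.04) and LUM (0.21) were not called. Under DMSO the fibroblast sums were 0.844 and 0.764 FPKM in parental and 10.9 and 11.0 FPKM in resistant libraries. The part of other cell types or states in the line differences was not tested.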

How the data were processed

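RNA was sequenced from both THP-1 lines after 6 days in DMSO or 1 µM DAC (n = 2 libraries per group). The authors deposited FPKM values per Ensembl gene, which were divided here by 1000, a factor inferred from the values. The submitters' processing notes name FastQC, cutadapt 1.9.1, HISAT2 2.1.0, SAMtools 1.6 and HTSeq 0.13.5 with hg38. Whether counting used strand is not given in the sources used here, so a gene and an antisense partner may share reads. Besides genes, 1264 repeat family rows were not used.

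Whole reads were recovered for 100% of genes above 0 within 0.02 of a read, which gave depths. Genes that reached 1 FPKM in 2 or more of the 4 DAC libraries were fitted as log2(FPKM + 1) with limma 3.58.1 (R 4.3.3) in a model of 4 group means over all 8 libraries. Contrasts were the line difference under DAC, under DMSO and the difference between these (interaction). A gene was called at an unadjusted p of at most 0.01 with a log2 difference of at least 1, and Benjamini-Hochberg adjustment covered all 13956 genes. The fitting step was tested on simulated data.

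The 12 autosomal protein-coding genes with the largest differences in each direction among those called (adjusted p under 0.05, lines not overlapping), the members of fixed gene lists and the study's own genes were named. Some items are not reported here. The genes and lists were chosen with earlier results of these data known. Genes with 0 reads in both libraries of a line were given a bound from 3 reads per library, which covers counting error only. Promoters were taken from RefSeq (GRCh38.p14), 250 bases before to 50 after each start, and matched by symbol. Alternatives were other scalings, offsets and filters, voom on recovered reads, a replicate block, the 4 DAC libraries alone, an adjusted p threshold and leaving out each library. Summaries and figures used Python 3.11.15 with pandas 2.3.3, numpy 2.4.6 and scipy 1.17.1.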

Additional observations from a re-analysis of the deposited data

Results flagged for a closer look

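The line difference differed between DAC and DMSO (interaction in limma, p of at most 0.01 and a log2 size of at least 1) for 24 of the genes with the largest differences or named in the study. Values are the line difference under DAC minus that under DMSO on the log2(FPKM + 1) scale, from 2 libraries per group. Genes were admitted by their level in the DAC libraries alone.

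Higher under DAC than under DMSO were the ATF4-associated genes PSAT1 (3.11), INHBE (3.04), TRIB3 (2.76) and CHAC1 (2.20), and CLSTN2 (1.17). GDA (−1.51), COL14A1 (−1.80) and OTP (−2.09) were higher in resistant cells in both conditions, by less under DAC.

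Among the interferon genes, IFI27 stood at −7.50, IFI44 at −6.19, ISG15 at −5.98, MX1 at −4.19 and IFIH1 at −2.26. Among secreted and granule genes, CXCL13 stood at −5.97, MMP9 at −5.84, CCL8 at −5.84, S100A8 at −4.53, S100A9 at −4.44 and CCL2 at −4.41. DAZL was at −4.51, RHEX at −4.28, TMEM176B at −3.04, ADAMDEC1 at −2.71 and CXCR4 at −2.25. In many of these genes at least one group lay below 1 FPKM, among them IFI27, MX1, S100A8, CCL2, CCL8, CXCL13, RHEX, TMEM176B, DAZL, GDA, OTP, COL14A1 and CLSTN2, so that these sizes depend on the 1 FPKM added before the log.

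Calls of opposite sign in the 2 conditions, lower under DAC and higher under DMSO, were made for 35 genes, all of which passed the interaction threshold.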

How the results depend on the processing

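No call under DAC changed sign under any alternative, and the 24 autosomal protein-coding genes named for the largest differences stayed called in every alternative that tested them. Counts of calls moved with the filter and the offset. With a mean of at least 5 FPKM, 462 genes were higher and 446 lower under DAC, 305 and 212 under DMSO, 721 were called by the interaction (1548 otherwise), and 17 monocyte and macrophage genes were lower, since fewer genes were tested. With 0.1 FPKM added, 1233 were higher and 1925 lower under DAC, and 1037 and 1029 under DMSO. The voom test on recovered reads gave 1283 and 1994 under DAC, and 1070 and 1102 under DMSO. TPM rescaling moved the median of all genes from −0.03 to 0.08 (1029 higher, 1212 lower), and quantile normalization gave 1089 and 1140. MAVS, not called at 0.96, was called at 1.08 after TPM rescaling. Leaving out 1 library at a time, with a lone sample assumed to vary like the other groups, gave 762 to 819 higher and 1335 to 1368 lower genes. The labels' replicate numbers did not pair the samples (correlations of deviations −0.034 to 0.018), and a replicate block gave 788 higher and 1363 lower genes, of which 783 and 1356 were the same genes. With 2 libraries per group and levels near 0 in many genes, sizes below 1 FPKM are poorly determined.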
